A study of Mus musculus with 12 samples.

Results

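The genes that bring glucose into the heart and break it down to pyruvate and lactate were followed through pressure overload with and without Alox5. The set holds 10 genes, chosen by symbol for their place in the pathway, with earlier results of these data known: the glucose transporters Slc2a1 and Slc2a4, the hexokinases Hk1 and Hk2, the phosphofructokinases Pfkp, Pfkm and Pfkl, the aldolase Aldoa, the pyruvate kinase Pkm and the lactate dehydrogenase Ldha. They are 10 of 49492 rows of the count table, and all 10 were among the 15542 genes with enough reads to test. RNA was sequenced from mouse left ventricle in 12 libraries, 3 in each of 4 groups: Alox5 knockout (Alox5ko) after TAC, Alox5ko NS, wild type (WT) after TAC, and WT NS. TAC stands for transverse aortic constriction, surgery in which the aorta is narrowed so that the left ventricle pumps against a higher load. NS is the label of the groups without TAC and is not spelled out. Alox5 encodes arachidonate 5-lipoxygenase, which makes leukotriene precursors. The series text speaks of a cardiac deficiency of Alox5, while the labels of the samples name only a genotype, with no allele, Cre driver, age, sex or time after surgery. No treatment shared by all 4 groups is named.

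Glucose enters cardiac myocytes through GLUT1, encoded by Slc2a1, and the insulin- and contraction-responsive GLUT4, encoded by Slc2a4. Hexokinase traps it as glucose 6-phosphate, phosphofructokinase commits it to glycolysis, and aldolase, pyruvate kinase and lactate dehydrogenase carry it on to pyruvate and lactate. The adult heart burns mainly fatty acids, and hypertrophied hearts are known for a greater reliance on glucose. Several glycolytic genes are textbook targets of hypoxia-inducible factor 1, which binds a short core that ends in CGTG.

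With TAC, few of these genes changed. Against NS, averaged over both genotypes, Pfkp was 1.32-fold higher (0.40 on the log2 scale, SE 0.0878) and Hk1 1.16-fold higher (0.22, SE 0.0568), and both passed the test over 12 libraries, as 5.1% of all tested genes did. The Pfkp call held in all 18 alternative fits and the Hk1 call in 10 of 18, being kept in 4 of the 12 fits that each leave out 1 library. The other 8 genes lay between -0.09 and 0.13 on the log2 scale and did not pass. Pfkp also passed within Alox5ko in the fit of all 12 libraries, at 1.47-fold. That call held in 13 of 19 alternative fits. It did not hold in a fit of the Alox5ko libraries alone, or without any single Alox5ko library other than Alox5ko TAC 2. No member passed a comparison of Alox5ko with WT, or a test of whether the TAC response differed between genotypes.

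The promoters of Pfkp and Hk1, the genes that passed, and of Ldha, a hypoxia target that did not, are shown with hypoxia cores in capitals. A core is ACGTG read on either strand. The other form, GCGTG, was searched in the same way. The sequences come from RefSeq, build GRCm38.p6, and run 5′ to 3′ from 250 bases before an annotated start to 50 bases after it. Hk1 has 2 annotated starts, and both windows are given. Ldha has 2 as well, and the window with more cores is printed. In order, the windows are chr13:6648722-6649021 on the minus strand, chr10:62340372-62340671 and chr10:62379859-62380158 on the minus strand, and chr7:46845554-46845853 on the plus strand.
Pfkp: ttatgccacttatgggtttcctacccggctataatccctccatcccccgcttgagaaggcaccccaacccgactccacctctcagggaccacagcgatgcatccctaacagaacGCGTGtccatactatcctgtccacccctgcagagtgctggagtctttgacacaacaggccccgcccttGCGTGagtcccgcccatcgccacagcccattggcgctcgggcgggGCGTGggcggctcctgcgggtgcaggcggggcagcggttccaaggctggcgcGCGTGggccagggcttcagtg
Hk1, inner start: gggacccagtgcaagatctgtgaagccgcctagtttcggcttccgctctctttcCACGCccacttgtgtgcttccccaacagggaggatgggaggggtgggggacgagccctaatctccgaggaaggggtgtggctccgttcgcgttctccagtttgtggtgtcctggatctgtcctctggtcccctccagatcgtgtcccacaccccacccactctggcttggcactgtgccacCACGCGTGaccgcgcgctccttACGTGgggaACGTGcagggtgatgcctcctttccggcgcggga
Hk1, outer start: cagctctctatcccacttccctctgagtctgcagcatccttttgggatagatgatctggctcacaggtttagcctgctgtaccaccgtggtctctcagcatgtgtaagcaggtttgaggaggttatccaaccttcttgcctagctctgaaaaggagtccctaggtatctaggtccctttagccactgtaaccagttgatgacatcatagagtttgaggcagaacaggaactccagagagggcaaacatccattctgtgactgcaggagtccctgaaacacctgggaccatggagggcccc
Ldha: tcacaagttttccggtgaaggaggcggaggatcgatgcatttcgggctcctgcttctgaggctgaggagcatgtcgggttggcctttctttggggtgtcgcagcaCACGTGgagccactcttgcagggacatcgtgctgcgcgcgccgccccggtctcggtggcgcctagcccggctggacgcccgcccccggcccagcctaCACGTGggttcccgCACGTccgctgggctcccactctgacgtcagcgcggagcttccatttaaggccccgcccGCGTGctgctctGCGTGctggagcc
The Pfkp window held 4 cores, all of them GCGTG. The inner Hk1 window held 5 and the outer one 0. The printed Ldha window held 7 and the other, chr7:46846832-46847131, held 2. Cores that overlap on opposite strands, as in the inner Hk1 window and the printed Ldha window, count as 2. Of all 32851 promoter windows in the RefSeq table, 43.8% held at least 1 core, 3.86% at least 4, 1.66% at least 5 and 0.301% at least 7. RefSeq windows were found for 9 of the 10 members, Slc2a4 being the one without an entry, and 13 of their 17 windows held a core, at least 1 window for each of the 9 genes. Pfkm and Aldoa have windows that overlap and hold the same core, which is then counted in both. A gene with several windows has more places for a core, so the count of genes cannot be set against the 43.8% of windows. These are matches of letters with no allowance for base composition, and no binding was measured.

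Libraries held 20889431 to 27311196 counts. Alox5 itself, as a check of the labels, averaged 1.20 ± 0.138 CPM in Alox5ko TAC and 1.17 ± 0.266 CPM in Alox5ko NS, against 11.7 ± 1.96 CPM in WT TAC and 12.5 ± 1.73 CPM in WT NS (SD, n = 3 each). Here CPM is a count relative to the TMM-adjusted size of its library. Summed CPM of 7 cardiomyocyte markers, scaled by library totals alone as are all marker sums, ran from 140261 to 177061 over the 12 libraries, and none of these markers was at 0. The lowest of these sums was in Alox5ko NS 3. That library was the lowest of its group for 6 of the 10 members (Slc2a4, Hk1, Hk2, Pfkm, Pfkl and Pkm), and Alox5ko TAC 2 was the lowest of its group for 6 (Slc2a1, Slc2a4, Hk1, Pfkp, Aldoa and Ldha). They were not the most extreme libraries by this count. WT NS 1 was the lowest of its group for 7 members (Slc2a4, Hk2, Pfkp, Pfkm, Aldoa, Pkm and Ldha). Alox5ko TAC 1 was the highest of its group for 7 and the lowest for 0. The share of counts from mitochondrially encoded genes was 14.6% to 16.8% in Alox5ko TAC and 18.2% to 21.4% in Alox5ko NS, and 15.7% to 17.3% in WT TAC and 16.5% to 18.1% in WT NS. These libraries are bulk tissue, so fewer cells of a type and less RNA per cell cannot be told apart.

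Per unit of gene length, the members spanned a 218-fold range. On the deposited RPKM scale (counts relative to gene length and sequencing depth), Aldoa had the highest mean over the 12 libraries, 333 ± 16.5 RPKM. Pfkm, the muscle phosphofructokinase, followed at 213 ± 12.5 RPKM. Pkm stood at 151 ± 10.8 RPKM (SD over 12 libraries for all 3). Ldha, which interconverts pyruvate and lactate, averaged 66.2 ± 4.05 RPKM and Hk2, the insulin-responsive hexokinase of muscle, 50.6 ± 5.36 RPKM. The ranges of these neighbours overlapped, and Ldha was above Hk2 in 11 of 12 libraries. Slc2a4 at 21.9 ± 1.17 RPKM and Hk1 at 20.6 ± 2.44 RPKM overlapped as well, with Slc2a4 above in 9 of 12 libraries. Pfkl, the liver-type phosphofructokinase, averaged 14.8 ± 1.09 RPKM. Its highest library was above the lowest of Hk1, although Hk1 was above Pfkl within each of the 12 libraries. Pfkp, the platelet-type phosphofructokinase, averaged 5.94 ± 1.21 RPKM and Slc2a1 1.53 ± 0.271 RPKM, and these bottom places did not overlap with each other or with Pfkl. The deposited length counts all exon bases of a row, from 2957 for Pfkm to 8532 for Hk1 and 9395 for Pfkp. The transcripts present may be shorter, and their lengths were not measured. This order and any share of RPKM therefore depend on the deposited lengths.

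**Figure D1:**
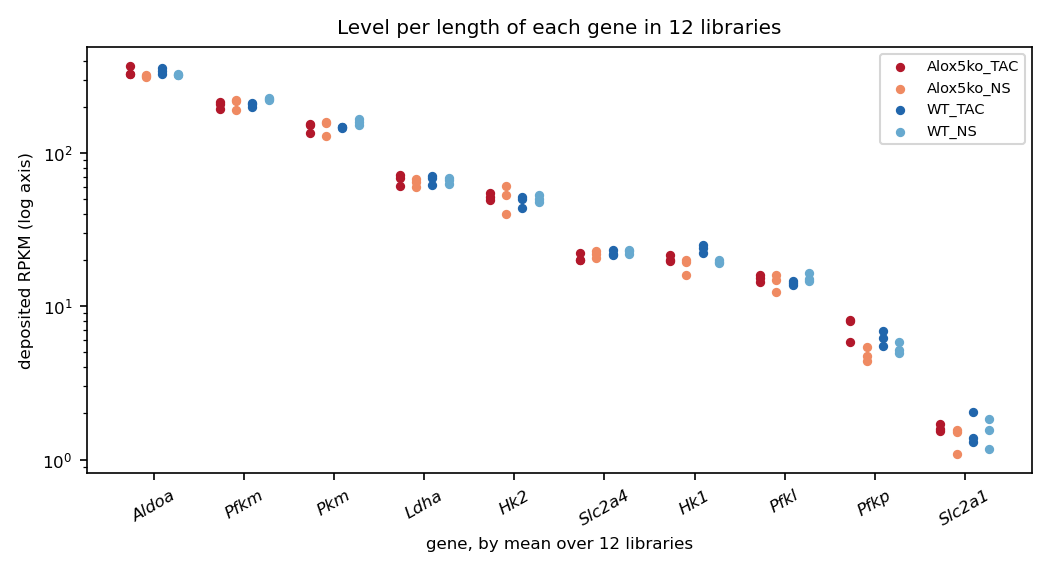
Deposited RPKM of the 10 genes (log axis) in each of the 12 libraries, as points coloured by group and ordered by mean. Aldoa, Pfkm and Pkm lead without overlap, and the ranges overlap between Ldha and Hk2, between Slc2a4 and Hk1, and between Hk1 and Pfkl.

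The transporters come first in the pathway. Slc2a4 had 78.4, 69.3 and 70.3 CPM in Alox5ko TAC, against 80.9, 78.0 and 76.1 CPM in Alox5ko NS. In WT TAC it had 73.5, 80.5 and 76.5 CPM, against 74.0, 77.7 and 80.6 CPM in WT NS. Both pairs of groups overlapped, and the log2 change with TAC was -0.11 (SE 0.0752, adjusted p = 0.551) in Alox5ko and -0.01 (SE 0.0752, adjusted p = 0.975) in WT. Adjusted p-values are from edgeR's quasi-likelihood F test with Benjamini-Hochberg adjustment over the 15542 genes unless DESeq2 is named, with 0.05 as the threshold of a call. Slc2a1 was the least covered member, with 90 to 150 reads a library. It had 5.65, 5.30 and 6.08 CPM in Alox5ko TAC, against 3.89, 5.37 and 5.78 CPM in Alox5ko NS. The WT TAC libraries had 7.04, 4.55 and 4.89 CPM, against 6.27, 5.32 and 4.04 CPM in WT NS. The groups overlapped in both genotypes, and the change with TAC averaged over genotypes, 0.13 (SE 0.135, adjusted p = 0.671), was about the size of its own error. Slc2a1 made up 7.21% ± 0.629 of the summed transporter RPKM in Alox5ko TAC and 5.99% ± 1.28 in Alox5ko NS, and 6.65% ± 1.79 in WT TAC and 6.28% ± 1.51 in WT NS (SD, n = 3 each).

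Of the hexokinases, Hk1, which is found in most tissues, passed with TAC, and Hk2, with the higher RPKM, did not. Hk1 had 211, 190 and 208 CPM in WT TAC, against 166, 160 and 162 CPM in WT NS. All 3 WT TAC libraries were above the WT NS libraries. In Alox5ko TAC it had 188, 167 and 173 CPM, against 169, 174 and 146 CPM in Alox5ko NS, where the groups overlapped. The log2 change was 0.32 (SE 0.0803, adjusted p = 0.0702) in WT and 0.11 (SE 0.0802, adjusted p = 0.571) in Alox5ko. Averaged over genotypes, Hk1 rose with TAC by 0.22 (SE 0.0568, adjusted p = 0.0316). That call held when 4 of the 12 libraries were left out singly and not for the other 8 (adjusted p up to 0.0799). It was lost without Alox5ko TAC 1 or 3, without Alox5ko NS 1, without WT TAC 1 or 3, and without any 1 of the 3 WT NS libraries. The WT change, in turn, passed with DESeq2 (adjusted p = 0.0221), with no filter on low counts (0.0162), in a fit of the 6 WT libraries alone (0.0251) and without Alox5ko NS 3 (0.0313). The difference between the responses of the genotypes was -0.21 (SE 0.113, unadjusted p = 0.0800, adjusted p = 0.936) and did not pass.

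Hk2 did not pass with TAC. It had 311, 322 and 298 CPM in Alox5ko TAC, against 322, 373 and 252 CPM in Alox5ko NS, the widest group of any hexokinase value. WT TAC values were 256, 299 and 311 CPM, against 278, 307 and 299 CPM in WT NS. The change averaged over genotypes was -0.03 (SE 0.0778, adjusted p = 0.893). As a share of the summed hexokinase RPKM, Hk1 made up 28.4% ± 1.58 in Alox5ko TAC and 26.7% ± 2.08 in Alox5ko NS, and 33.1% ± 3.05 in WT TAC and 27.9% ± 1.37 in WT NS (SD, n = 3 each). The 3 shares of WT TAC, 30.8% to 36.6%, were above the 3 of WT NS, 26.7% to 29.4%, while those of the Alox5ko groups overlapped. These shares repeat the values of the 2 genes and were given no test, and how often such shares separate for other genes was not measured. Hk2 lies on chromosome 6, as Alox5 does, 33.6 megabases away, so the chromosome that carries the targeted gene carries Hk2 too.

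Pfkp showed the clearest change of the set. It had 77.9, 54.4 and 76.2 CPM in Alox5ko TAC, against 52.2, 41.9 and 47.5 CPM in Alox5ko NS. All 3 Alox5ko TAC libraries were above the Alox5ko NS libraries, but Alox5ko TAC 2 by only a small margin. Its WT TAC libraries stood at 63.4, 57.9 and 51.7 CPM, against 45.0, 52.9 and 48.6 CPM in WT NS, where the groups overlapped by 1 library. In Alox5ko, Pfkp rose with TAC by 0.56 on the log2 scale (SE 0.124, adjusted p = 0.0337). In WT the change was 0.24 (SE 0.124, adjusted p = 0.479). Averaged over genotypes, Pfkp rose by 0.40 (SE 0.0878, adjusted p = 0.0142), and this call held in all 18 alternative fits (adjusted p up to 0.0463). The difference between the genotypes' responses was 0.32 (SE 0.175, unadjusted p = 0.0883, adjusted p = 0.953) and did not pass.

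The call within Alox5ko rests on more than 1 library. It was lost without Alox5ko TAC 1 (adjusted p = 0.141), Alox5ko TAC 3 (0.140), Alox5ko NS 1 (0.0577), Alox5ko NS 2 (0.132) or Alox5ko NS 3 (0.116), and in a fit of the 6 Alox5ko libraries alone (0.0668). Without Alox5ko TAC 2 the change was 0.71 (adjusted p = 0.00117), and with Alox5ko NS 3 left out as well it was 0.71 (adjusted p = 0.00389). Exons of Pfkp overlap Pitrm1 on the opposite strand over 372 bases, 3.96% of the deposited length of Pfkp, and how strand was counted is not given. Pitrm1 itself lay at -0.09 with TAC in Alox5ko (adjusted p = 0.640) and at -0.16 in WT (adjusted p = 0.377).

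Markers of other cell types were summed beside these rises, and 3 of the lists are described first. The 7 genes listed for skeletal muscle, among them Acta1, the skeletal alpha-actin that stressed ventricles also express, summed to 1658, 288 and 1154 CPM in Alox5ko TAC, against 180, 157 and 168 CPM in Alox5ko NS. In WT TAC they summed to 985, 924 and 498 CPM, against 112, 331 and 126 CPM in WT NS. Alox5ko TAC 2 was thus the lowest of its group for this sum as for Pfkp, and WT NS 2 the highest of its group for both. Of these 7 genes, 4 had enough reads to test and 1 of them, Acta1, rose with TAC averaged over genotypes by edgeR, and 2, Acta1 and Tnnt3, by DESeq2. The 4 did not move together: by edgeR 2 had a positive and 2 a negative log2 change, from -0.27 to 2.40. The 6 markers of activated fibroblasts summed to 89.7 to 206 CPM in Alox5ko TAC and 70.3 to 92.9 CPM in Alox5ko NS, and to 142 to 328 CPM in WT TAC and 130 to 162 CPM in WT NS. The 6 endothelial markers summed to 412 to 471 CPM in Alox5ko TAC and 316 to 412 CPM in Alox5ko NS, and to 463 to 554 CPM in WT TAC and 452 to 487 CPM in WT NS. Apart from Acta1, 1 of 5 tested markers of activated fibroblasts (Cilp) and 1 of 6 of fibroblasts (Lum) rose with TAC averaged over genotypes by edgeR. DESeq2 called 3 of activated fibroblasts (Cilp, Comp and Postn) and 1 of fibroblasts (Lum) higher. Of smooth muscle and pericyte markers DESeq2 called 1 higher and 1 lower (Abcc9 and Cspg4). Of the endothelial markers 0 of 6 passed by edgeR or DESeq2 (3 of 6 at an unadjusted p under 0.05). No gene of these 3 lists was at 0 over a whole group. Macrophage markers summed to 48.2 to 61.0 CPM in Alox5ko TAC and 45.1 to 47.5 CPM in Alox5ko NS. In WT TAC they summed to 41.9 to 61.7 CPM, against 52.7 to 57.8 CPM in WT NS. Atrial markers varied widely, at 1.67 to 90.9 CPM in Alox5ko TAC and 1.32 to 32.6 CPM in Alox5ko NS. In WT TAC they ran from 6.90 to 60.1 CPM, against 17.2 to 75.7 CPM in WT NS. Sums of the remaining lists are not given here. The part of these cell types in the Pfkp and Hk1 results, and that of the mitochondrial share, was not tested.

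The remaining phosphofructokinases stayed within a narrow band. Pfkm had 643, 616 and 580 CPM in Alox5ko TAC, against 664, 675 and 604 CPM in Alox5ko NS. In WT TAC it had 583, 616 and 628 CPM, against 643, 651 and 671 CPM in WT NS. The WT groups did not overlap, with WT TAC lower, yet the change of -0.10 (SE 0.0732, adjusted p = 0.638) did not pass. Pfkl had 68.5, 69.2 and 64.3 CPM in Alox5ko TAC, against 71.4, 66.3 and 58.1 CPM in Alox5ko NS. The WT TAC libraries had 63.2, 62.2 and 60.5 CPM, against 64.1, 70.05 and 63.4 CPM in WT NS. Again the WT groups did not overlap and the change, -0.09 (SE 0.0822, adjusted p = 0.751), did not pass. Pfkm made up most of the summed phosphofructokinase RPKM, at 90.1% ± 0.507 in Alox5ko TAC and 91.7% ± 0.491 in Alox5ko NS, and 91.0% ± 0.684 in WT TAC and 91.6% ± 0.508 in WT NS. The size of these shares depends on the deposited lengths, 2957 bases for Pfkm against 9395 for Pfkp. Pfkp made up 3.22% ± 0.619 in Alox5ko TAC and 2.11% ± 0.267 in Alox5ko NS, and 2.72% ± 0.358 in WT TAC and 2.15% ± 0.160 in WT NS (SD, n = 3 each). Its share was above every NS library of the same genotype in all 3 Alox5ko TAC and all 3 WT TAC libraries. The lowest share was 2.52% in Alox5ko TAC, against at most 2.27% in Alox5ko NS. In WT TAC the lowest was 2.38%, against at most 2.33% in WT NS, although the CPM of Pfkp overlapped between the WT groups. These shares depend on Pfkm and Pfkl as well, whose WT TAC libraries were below those of WT NS, and were given no test. How often such shares separate for other genes was not measured. By CPM, 18.9% of all genes were apart between the WT groups and 18% between the Alox5ko groups.

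**Figure D2:**
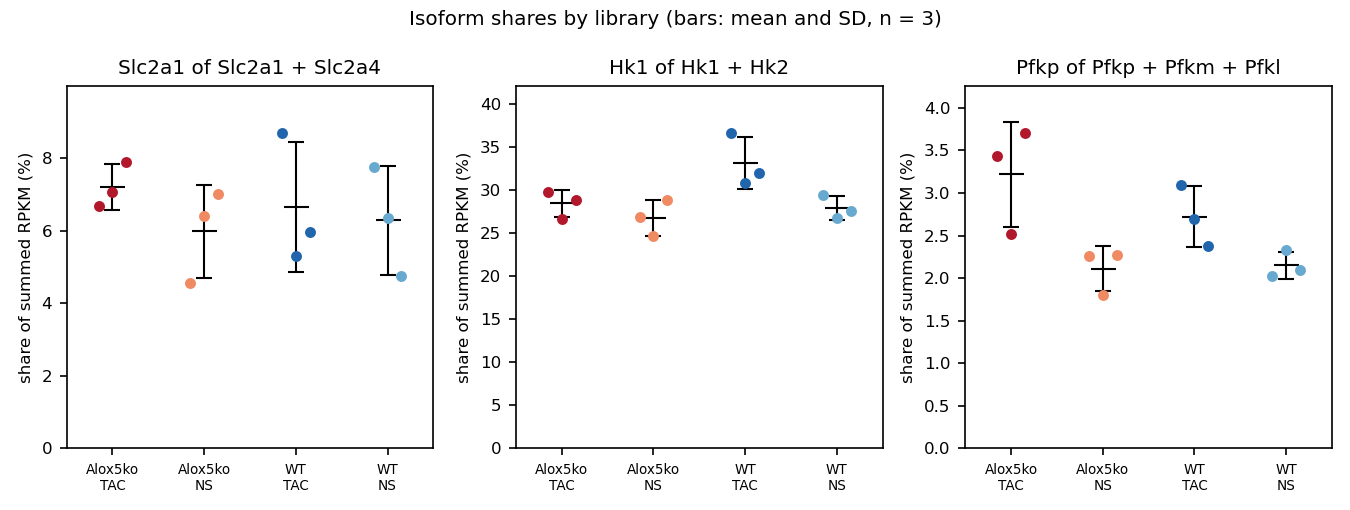
Share (%) of the summed deposited RPKM taken by Slc2a1 among the transporters, Hk1 among the hexokinases and Pfkp among the phosphofructokinases, 1 point a library, with mean and SD bars (n = 3). The Pfkp share is 3.22% in Alox5ko TAC against 2.11% in Alox5ko NS, and the Hk1 share is 33.1% in WT TAC against 27.9% in WT NS.

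In the later steps, nothing passed. Aldoa, which splits fructose 1,6-bisphosphate, had 1405, 1219 and 1264 CPM in Alox5ko TAC, against 1239, 1232 and 1248 CPM in Alox5ko NS. WT TAC values were 1263, 1346 and 1247 CPM, against 1177, 1194 and 1198 CPM in WT NS. The WT groups did not overlap, with WT TAC higher, and the change was 0.11 (SE 0.0728, adjusted p = 0.599). Pkm, which yields pyruvate and ATP, had 790, 749 and 690 CPM in Alox5ko TAC, against 815, 808 and 689 CPM in Alox5ko NS. Its WT TAC libraries stood at 714, 737 and 742 CPM, against 741, 815 and 795 CPM in WT NS. Both pairs overlapped, and the change averaged over genotypes was -0.08 (SE 0.0573, adjusted p = 0.513). The row of Pkm sums its M1 and M2 splice forms, so a switch between them would not show, and it shares 767 bases on the same strand (15.3% of its length) with the gene model RP23-320D23.6. Ldha had 241, 199 and 230 CPM in Alox5ko TAC, against 219, 202 and 236 CPM in Alox5ko NS. In WT TAC it had 232, 206 and 230 CPM, against 201, 219 and 218 CPM in WT NS. Every pair overlapped, and the change averaged over genotypes was 0.05 (SE 0.0609, adjusted p = 0.741).

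**Figure D3:**
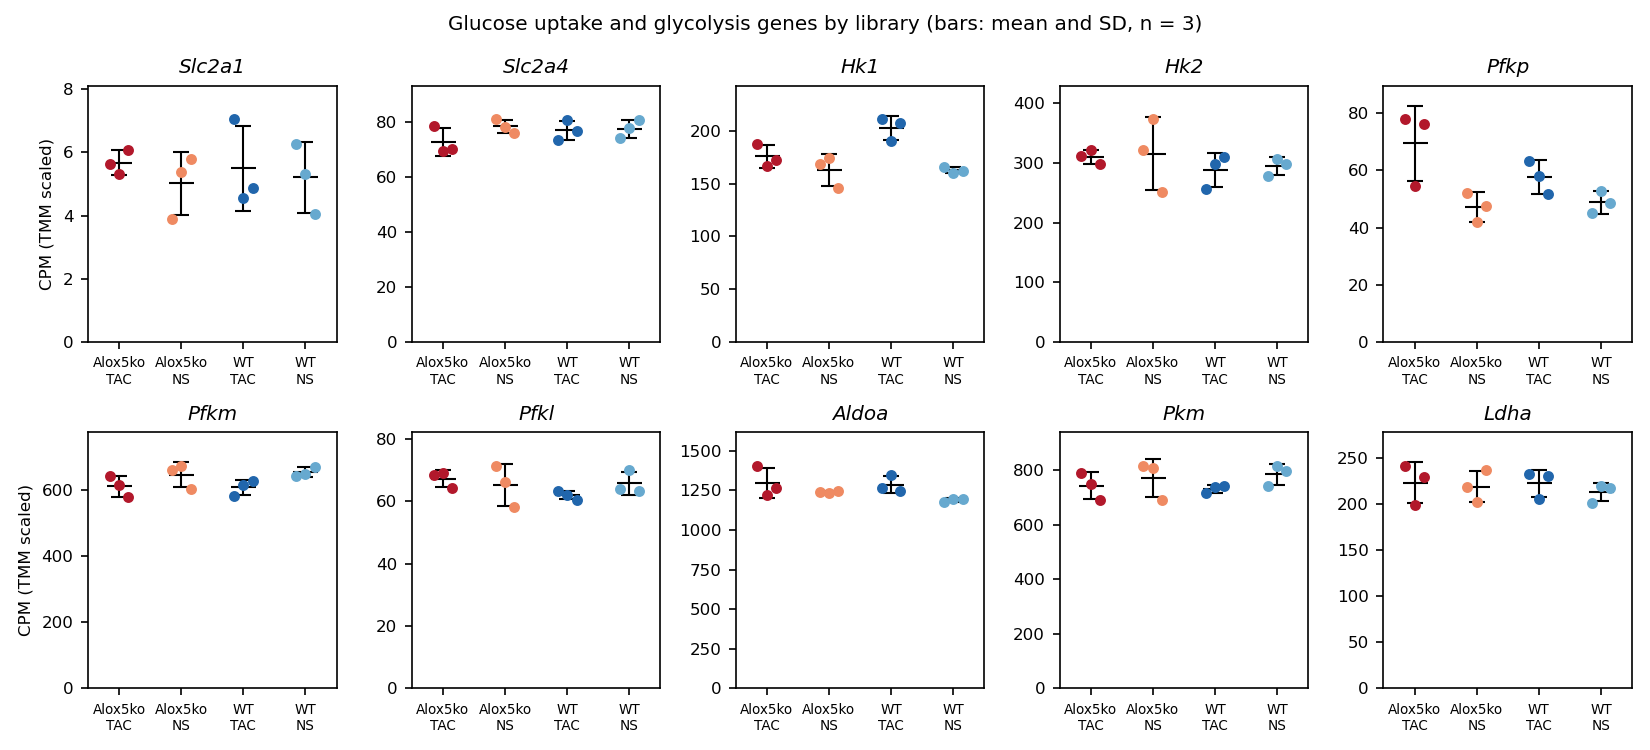
CPM (TMM scaled) of each gene in the 12 libraries, 1 point a library, with mean and SD bars (n = 3 a group) and axes that start at 0. Pfkp averages 69.5 CPM in Alox5ko TAC against 47.2 CPM in Alox5ko NS, and Hk1 averages 203 CPM in WT TAC against 163 CPM in WT NS.

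Calls among the members were read against those among all genes. Averaged over genotypes, 2 of 10 members were called with TAC, both higher, where 5.1% of all tested genes were called, and the members' median change was 0.01 against 0.00 over all genes. Within Alox5ko, 1 of 10 was called where 1.34% of all genes were, and the medians were 0.04 and 0.00. Within WT, 0 of 10 were called where 0.766% of all genes were, with 1 member (Hk1) at an unadjusted p under 0.05 and 1 called by DESeq2. The medians there were 0.03 and 0.00. Libraries of WT TAC and WT NS did not overlap for 4 members, Hk1 and Aldoa higher and Pfkm and Pfkl lower, where 18.9% of all genes were apart. Alox5ko TAC and Alox5ko NS were apart for 1 member, Pfkp, where 18% of all genes were apart. No member separated all 6 TAC from all 6 NS libraries, as 2.7% of all genes did.

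Comparisons of the genotypes gave no call among the members. Within TAC, 0 of 10 members were called between Alox5ko and WT where 0.109% of all genes were, with 2 members at an unadjusted p under 0.05 and 0 called by DESeq2. These were Hk1 at -0.21 (SE 0.0802, adjusted p = 0.463), with all 3 Alox5ko TAC libraries below the WT TAC libraries, and Pfkp at 0.27 (SE 0.124, adjusted p = 0.576), with groups that overlapped. Hk1 and Pfkl were the 2 members whose Alox5ko TAC and WT TAC libraries were apart, Pfkl being higher in Alox5ko TAC by 0.12 (SE 0.0822, adjusted p = 0.751), where 12.3% of all genes were apart. Within NS, 0 of 10 were called where 0.0386% of all genes were, 0 at an unadjusted p under 0.05 and 0 by DESeq2. There the members lay between -0.06 and 0.10, and only Aldoa had libraries apart, with Alox5ko NS above WT NS, where 13.6% of all genes were apart. Averaged over TAC and NS, 0 of 10 were called where 0.154% of all genes were, 0 at an unadjusted p under 0.05 and 0 by DESeq2. The largest of these values were 0.11 for Pfkp (SE 0.0877, adjusted p = 0.741), 0.10 for Hk2 (SE 0.0778, adjusted p = 0.721) and -0.10 for Hk1 (SE 0.0567, adjusted p = 0.581). In the test of whether TAC acted differently in the genotypes, 0 of 10 members and 0% of all genes were called, while 836 of the 15542 genes and 0 members had an unadjusted p under 0.05, and DESeq2 called 1 gene, which was no member.

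**Figure D4:**
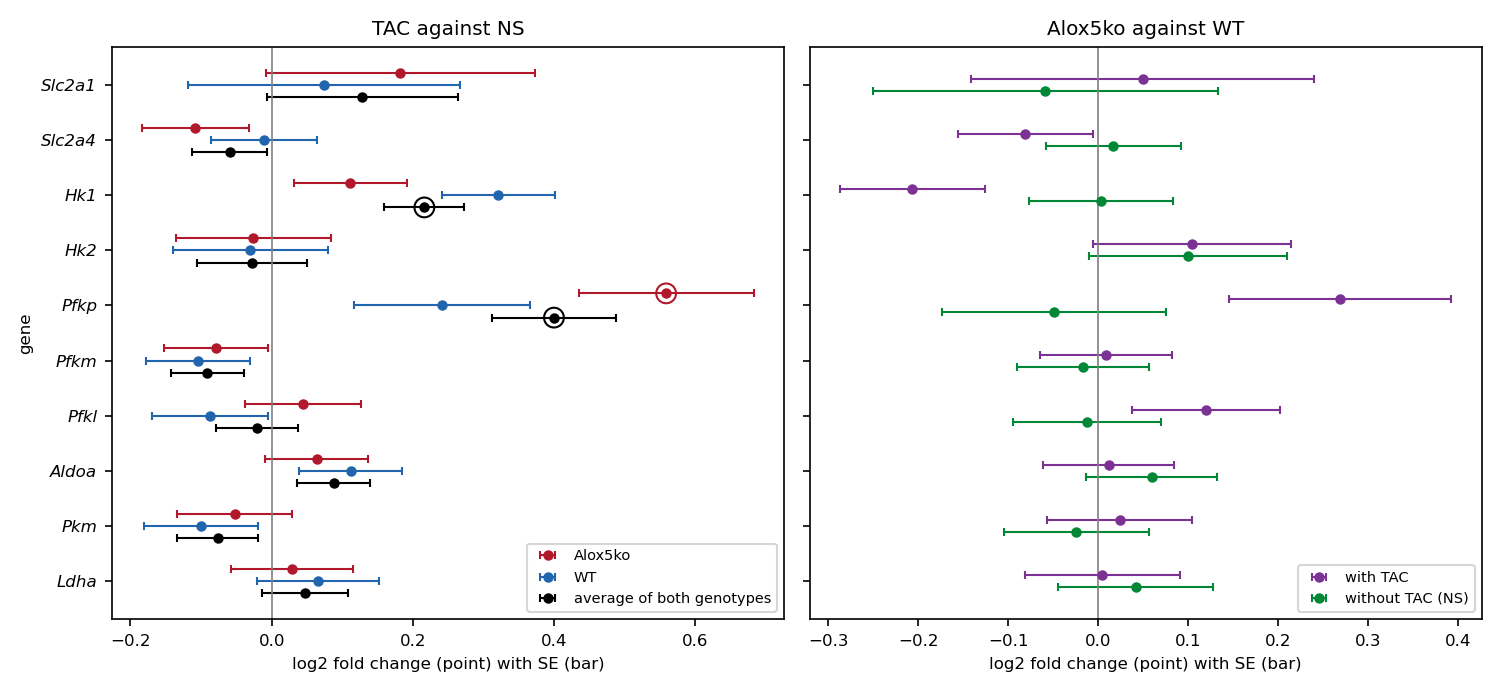
Log2 fold change (point) with its SE (bar) for each gene, on the left TAC against NS in Alox5ko, in WT and averaged over genotypes, and on the right Alox5ko against WT with TAC and without it. Rings mark the values that passed at an adjusted p under 0.05: Pfkp in Alox5ko (0.56) and on average (0.40), and Hk1 on average (0.22).

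Around the members, 95 further genes of glucose metabolism were listed in 6 groups, of which 88 had enough reads to test. With TAC averaged over genotypes, 0 rose and 4 fell by edgeR, with a median of -0.01 over the 88, and 1 rose and 5 fell by DESeq2. Over all genes 5.1% were called by edgeR with a median of 0.00, so 4 of 88 is a share near the background. The 4 genes are described for what they encode. Phkg1, the muscle catalytic subunit of phosphorylase kinase, which switches on glycogen breakdown, had 4.20, 5.85 and 6.65 CPM in Alox5ko TAC, against 11.9, 9.92 and 11.8 CPM in Alox5ko NS. The WT TAC libraries had 6.06, 5.79 and 8.74 CPM, against 9.77, 7.65 and 9.52 CPM in WT NS. The Alox5ko groups were far apart and the WT groups overlapped. Phkg1 fell in Alox5ko by 1.01 on the log2 scale (SE 0.173, adjusted p = 0.00715) and was at -0.39 in WT (SE 0.173, adjusted p = 0.372). The difference between these responses, -0.62, had an unadjusted p of 0.0200 and an adjusted p of 0.847. Averaged over genotypes Phkg1 fell by 0.70 (SE 0.122, adjusted p = 0.00270), and its exons overlap Sumf2 on the opposite strand over 630 bases, 9.68% of its length. It was the 1 gene of the 88 called in a single genotype, and it kept both calls in every alternative fit.

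The pyruvate dehydrogenase complex feeds the product of glycolysis into the citric acid cycle. Dlat, its acetyltransferase subunit, had 149, 134 and 140 CPM in Alox5ko TAC, against 164, 167 and 169 CPM in Alox5ko NS. WT TAC values were 129, 144 and 134 CPM, against 152, 167 and 154 CPM in WT NS. Both pairs were apart, and Dlat fell with TAC averaged over genotypes by 0.23 (SE 0.0520, adjusted p = 0.0137), a call kept in all 18 alternative fits. Dld, the dihydrolipoamide dehydrogenase that this complex shares with others, had 344, 346 and 349 CPM in Alox5ko TAC, against 377, 378 and 422 CPM in Alox5ko NS. Its WT TAC libraries stood at 293, 328 and 338 CPM, against 371, 384 and 381 CPM in WT NS. Both pairs were apart here too, and Dld fell by 0.21 (SE 0.0528, adjusted p = 0.0239). Its call was lost without Alox5ko TAC 3, WT TAC 1, WT NS 2 or WT NS 3 (adjusted p up to 0.0712). The other subunits, named after their values were seen, were Pdha1 at -0.17 (adjusted p = 0.0603), Pdhx at -0.16 (adjusted p = 0.149) and Pdhb at -0.01 (adjusted p = 0.950), none of which passed. Over the 18 genes of pyruvate and lactate handling, 2 fell and 0 rose by edgeR, where 5.1% of all genes were called in either direction, with a median of -0.14 against 0.00 over all genes. DESeq2 called Pdha1 lower as well.

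Control of glycolytic flux gave 1 further call. Pfkfb1, an isoform of the enzyme that makes and degrades fructose 2,6-bisphosphate, the activator of phosphofructokinase, had 0.637, 1.51 and 1.20 CPM in Alox5ko TAC, against 2.58, 2.95 and 1.78 CPM in Alox5ko NS. In WT TAC it had 1.17, 1.54 and 1.36 CPM, against 3.59, 1.17 and 2.42 CPM in WT NS. It fell by 0.97 averaged over genotypes (SE 0.254, adjusted p = 0.0353). Leaving out any of 9 libraries singly ended the call (adjusted p up to 0.0900). Those 9 were Alox5ko TAC 1 and 3, Alox5ko NS 1 and 2, all 3 WT TAC libraries, and WT NS 1 and 3. Irs1, which relays the insulin signal, was at -0.19 (adjusted p = 0.109). Of the 18 regulators 1 fell and 0 rose, by edgeR and by DESeq2, with a median of -0.05.

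The other glycolytic enzymes had no call by edgeR. Gpi1, glucose-6-phosphate isomerase, was at 0.15 (SE 0.0493, adjusted p = 0.0978). Of the 13 tested enzymes 0 passed by edgeR and 1 by DESeq2 (4 at an unadjusted p under 0.05), with a median of 0.01. Of the 6 tested further glucose transporters 0 passed by edgeR or DESeq2 (0 at an unadjusted p under 0.05), Slc5a1 at 0.40 and Slc2a9 at -0.45 having the smallest p-values at levels of at most 1.20 CPM. Of the 17 genes of glycogen metabolism 1, Phkg1, fell and 0 rose, by edgeR and by DESeq2. Phka1, a regulatory subunit of the same kinase, was at 0.24 (adjusted p = 0.0590). Of the 16 genes of the pentose phosphate, hexosamine and polyol branches 0 passed by edgeR or DESeq2 (2 at an unadjusted p under 0.05), with Akr1b3, aldose reductase, at -0.16 and Pgd, a dehydrogenase of the pentose phosphate pathway, at 0.15. Between genotypes, 0 of the 88 passed by edgeR within TAC, within NS or on average (6, 6 and 10 at an unadjusted p under 0.05). DESeq2 called 1 within TAC (Txnip, higher in Alox5ko), 0 within NS and 1 on average.

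**Figure D5:**
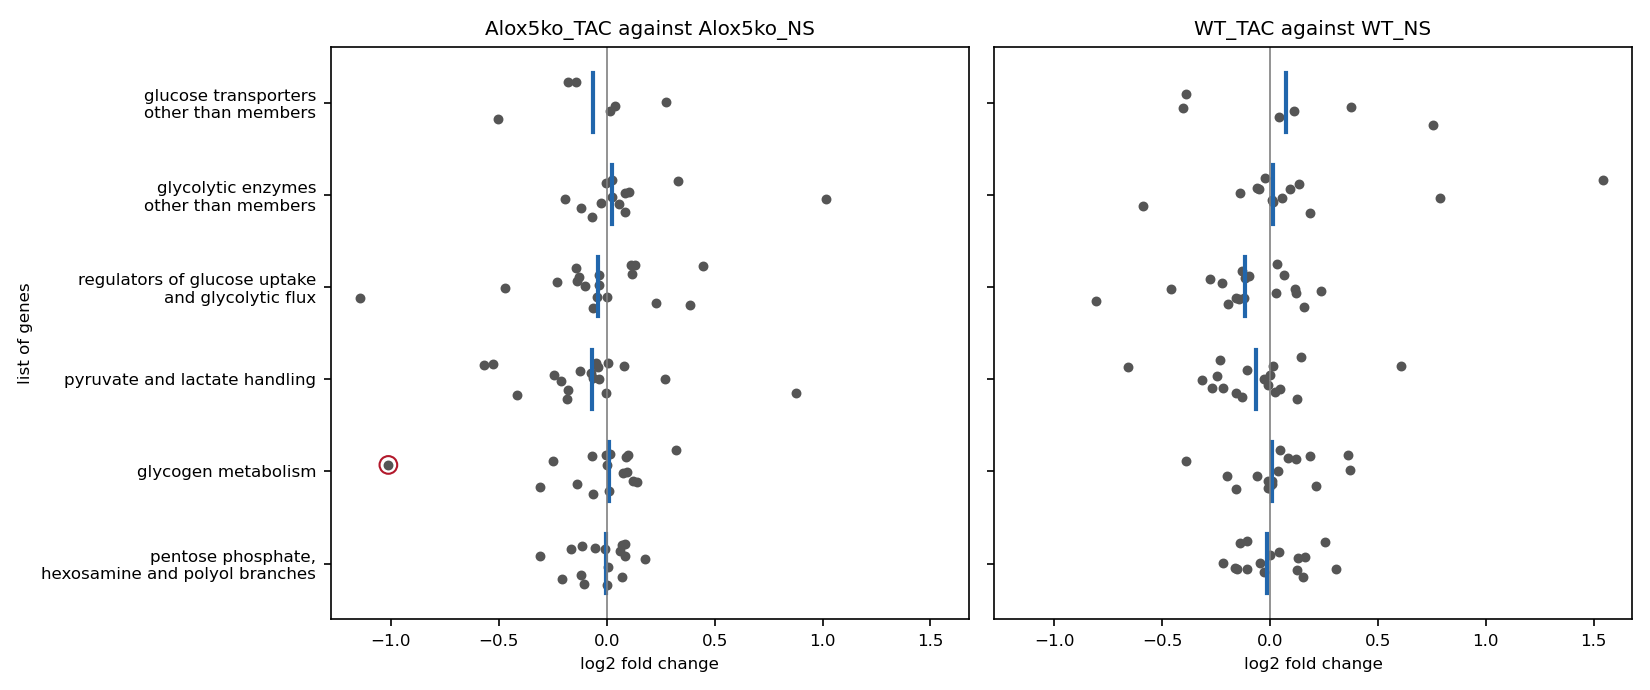
Log2 fold change with TAC in Alox5ko (left) and in WT (right) for the tested genes of the 6 further lists, 1 point a gene and a blue bar at each list's median. The ring marks Phkg1 in Alox5ko (-1.01), the 1 gene that passed in either genotype.

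The genes whose pattern over the 12 libraries was most like that of Pfkp were found by the root mean square difference of log2 CPM centred on each gene's mean, over 10467 candidate genes. The median candidate differed by 0.309. Closest was Hspb1, a small heat shock protein, at 0.0890, followed by its pseudogene Hsp25-ps1 at 0.103, whose reads may be shared with it. Next came Slc7a5, a transporter of large neutral amino acids, at 0.103, then Prnp, the prion protein, at 0.106, and Mknk2, a kinase of the translation factor eIF4E, at 0.107. Of the members, Aldoa (0.224) and Ldha (0.227) were nearest to Pfkp, and Hk2 (0.324) was farthest. Hspb1 had 92.2, 56.1 and 78.5 CPM in Alox5ko TAC, against 52.1, 43.8 and 54.9 CPM in Alox5ko NS. WT TAC values were 69.6, 62.4 and 58.0 CPM, against 45.0, 64.3 and 52.4 CPM in WT NS. Like Pfkp it was lowest in Alox5ko TAC 2 among the Alox5ko TAC libraries. Having been chosen for their likeness, these genes are described without a test.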

How the data were processed

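Counts were measured per gene in 12 RNA-seq libraries of poly(A) RNA, sequenced as directional libraries in 150-bp read pairs per the labels' protocols. The authors deposited raw counts and RPKM values, and the RPKM equalled counts divided by gene length and library total within 8.03e-05 percent. Per the submitters' processing notes HISAT2 and DESeq2 were used and the builds named are GRCh38 and mm10. The counting program, annotation and strand setting are not given in the sources used here.

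Counts were tested with edgeR 4.0.16 (limma 3.58.1, R 4.3.3): filterByExpr (minimum count 10, total 15), TMM factors of 0.945 to 1.035, 1 coefficient per group over the 12 libraries and robust quasi-likelihood F tests of 7 comparisons. The code was tested on simulated data. DESeq2 1.42.0, other scaling, no filter, 6-library fits, the replicate number as a block and leaving out each library were alternatives. Leaving out Alox5ko NS 3 and Alox5ko TAC 2 together was added after seeing the data. No label ties a library to an animal of its own, so p-values measure only how these samples vary, which may be technical. Chi-square values per gene of 5.24 to 30.9 between libraries of 1 group show no library that copies another. Named are all 10 members, Alox5, listed genes called in a pairwise or interaction test, the 2 of each list with the smallest p for TAC averaged over genotypes, and the 5 genes nearest to the member with the smallest adjusted p there. Some listed genes that this rule or DESeq2 picked are counted but not reported by name here. Members and lists were chosen with earlier results of these data known. Positions are in GRCm38, which is mm10. Aldoa merges 2 GENCODE genes of that symbol.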

Additional observations from a re-analysis of the deposited data

How the results depend on the processing

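The Pfkp change with TAC within Alox5ko passed in 13 of 19 alternative fits, over a range of 0.47 to 0.71 when single libraries were left out. Among fits without a single Alox5ko library, it passed only without Alox5ko TAC 2. Fits without a WT library keep all the libraries that this change compares. The Pfkp change averaged over genotypes passed in all 18. The Hk1 change averaged over genotypes passed in 10 of 18 fits, always with the same sign. Within WT the Hk1 change passed in 5 of 19, but in no fit that left out a WT library. The number of members called with TAC in Alox5ko was 0 in the fit of 6 libraries and 0 to 1 without single libraries. With TAC in WT it was 1 with no filter on low counts, with 6 libraries, with DESeq2 and with Alox5ko NS 3 and Alox5ko TAC 2 both left out, and 0 to 1 without single libraries. With TAC on average it was 1 to 2 without single libraries, and with both of those libraries left out it was 2 on average and 1 in each genotype. The number of listed genes called, 1 with TAC in Alox5ko and 4 on average, was 5 with no filter and 2 with both libraries left out in Alox5ko, and on average 7 with both left out and 2 to 6 without single libraries. It was 0 with TAC in WT and became 2 with both left out. Between genotypes within TAC it became 2 with no filter, 1 with 6 libraries and 1 with DESeq2, within NS 1 with no filter, on average 3 with no filter, 1 with DESeq2 and 0 to 1 without single libraries, and for the interaction 1 with no filter. Over all genes, no filter raised the calls to 538 against 119 for TAC in WT, 756 against 209 for TAC in Alox5ko, 252 against 17 and 116 against 6 for genotype within TAC and within NS, 1331 against 792 for TAC on average, 348 against 24 for genotype on average and 83 against 0 for the interaction. DESeq2 gave 285, 407, 59, 24, 971, 99 and 1 in the same order, 6-library fits 215, 159, 39 and 18, and both libraries left out 284, 386, 30, 3, 1039, 13 and 0. Single libraries left out gave 17 to 182, 60 to 379, 10 to 28, 2 to 7, 407 to 990, 15 to 44 and 0 to 1. The cause of these shifts was not tested.

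Replicate numbers did not pair the libraries: the deviations of same-numbered libraries correlated at -0.121 to 0.0916 over 18 pairs, and a library correlated best with its own number in 16 of 36 cases. With the replicate block, Pfkp was at 0.55 (adjusted p = 0.0388) with TAC in Alox5ko, the members' calls were as without it, and of the listed genes named Pfkfb1 lost its call (adjusted p = 0.0726).

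Signs changed among values that did not pass: 34 of the 70 member values took the other sign in some alternative, the largest of them at 0.11 as reported. Library totals alone moved the median of all genes by 0.08 or less in a comparison. With library totals alone, the reversed values were Hk2 at 0.0100 (TAC in Alox5ko), Pfkm at -0.0051, Aldoa at -0.0037 and Ldha at -0.011 (genotype within TAC), Slc2a4 at -0.064, Hk1 at -0.076, Aldoa at -0.022 and Ldha at -0.041 (genotype within NS), Aldoa at -0.013 and Ldha at -0.026 (genotype on average), Aldoa at 0.018 and Ldha at 0.029 (the interaction). With Alox5ko NS 3 and Alox5ko TAC 2 both left out, the reversed values were Pfkl at -0.052 (TAC in Alox5ko), Pfkm at 0.031, Pfkl at 0.064, Pkm at 0.051 and Ldha at -0.016 (genotype within NS), Pfkm at 0.018 and Pkm at 0.034 (genotype on average), Hk2 at -0.16, Pfkm at -0.026, Pkm at -0.032 and Ldha at 0.10 (the interaction). With no filter on low counts, the reversed values were Pfkl at 0.00078 (genotype within NS), Slc2a1 at 0.0044, Pfkm at 0.0049 and Pkm at 0.0086 (genotype on average), Hk2 at -0.0049 (the interaction). With DESeq2 size factors in edgeR, the reversed values were Slc2a1 at 0.0027, Pfkm at 0.0030 and Pkm at 0.0065 (genotype on average). With the replicate block, the reversed values were Slc2a1 at 0.0034 (genotype on average). With the DESeq2 test, the reversed values were Slc2a1 at 0.0030, Pfkm at 0.0030 and Pkm at 0.0066 (genotype on average).

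For TAC in Alox5ko, leaving out single libraries gave Hk2 -0.17 to 0.11, Pfkl -0.033 to 0.11, Ldha -0.032 to 0.10 and Slc5a1 -0.25 to 0.35. For TAC in WT, leaving out single libraries gave Slc2a1 -0.14 to 0.23, Slc2a4 -0.050 to 0.021 and Hk2 -0.087 to 0.048. For genotype within TAC, leaving out single libraries gave Slc2a1 -0.066 to 0.27, Pfkm -0.027 to 0.047, Aldoa -0.051 to 0.054, Pkm -0.023 to 0.075 and Ldha -0.056 to 0.082. For genotype within NS, leaving out single libraries gave Slc2a1 -0.21 to 0.10, Slc2a4 -0.015 to 0.046, Hk1 -0.048 to 0.077, Hk2 -0.037 to 0.24, Pfkp -0.13 to 0.030, Pfkm -0.047 to 0.031, Pfkl -0.082 to 0.064, Pkm -0.066 to 0.050 and Ldha -0.017 to 0.10. For TAC on average, leaving out single libraries gave Hk2 -0.10 to 0.040 and Pfkl -0.060 to 0.013. For genotype on average, leaving out single libraries gave Slc2a1 -0.081 to 0.10, Pfkm -0.022 to 0.020, Pkm -0.024 to 0.037 and Ldha -0.0069 to 0.062. For the interaction, leaving out single libraries gave Slc2a1 -0.048 to 0.33, Hk2 -0.13 to 0.14, Pfkm -0.022 to 0.064, Pkm -0.026 to 0.10 and Ldha -0.10 to 0.040. Slc2a1, with 90 to 150 reads a library, had the widest errors of the members.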
